A study of Mus musculus with 12 samples.

Results

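OVA-pulsed EKO-labelled Sp37A3 cells were compared with OVA-pulsed CtrV cells, which makes 6 of the 12 libraries of the series: EKO_OVA replicates 1 to 3 against CtrV_OVA replicates 1 to 3. The question was how loss of Siglec-E alters dendritic cells (DCs) that have taken up an antigen and matured, and pathways other than the interferon, tumor necrosis factor, inflammatory and cell cycle programmes are described. Sp37A3 is an immature DC line derived from C57BL/6 mouse spleen and was kept in GM-CSF and M-CSF. CtrV cells had received an empty lentiviral vector, whereas EKO cells pool several clones, each grown from a single cell after CRISPR/Cas9 editing of Siglece, so that the edit and the chosen clones cannot be told apart. Both groups were pulsed with ovalbumin (OVA) protein, stimulated with LPS and collected after 24 h of processing; the remaining 6 libraries, the same lines with LPS but without OVA, are used here only to ask whether a difference depended on pulsing. The labels number the replicates but do not say whether they came from separate cultures, so p-values measure the spread between these libraries, which may be technical.

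Siglec-E is an inhibitory receptor that binds sialic acid and signals through immunoreceptor tyrosine-based inhibitory motifs. Dendritic cells take up protein antigens through endocytic receptors, cut them with lysosomal proteases in vesicles acidified by the vacuolar ATPase, and load the peptides on MHC class II molecules made in the endoplasmic reticulum (ER). LPS engages Toll-like receptor 4 and starts maturation, during which uptake, processing, lipid metabolism and protein synthesis are all remodelled.

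Siglece itself, which lies on mouse chromosome 7 from 43651070 to 43660161 (GRCm38), measured 152, 153 and 163 CPM in CtrV replicates 1 to 3 and 174, 208 and 202 CPM in EKO-labelled replicates 1 to 3, given as TMM-normalized CPM, that is, as counts scaled to the size of each library and so comparable between libraries but not between genes. The transcript was not lower in the line labelled EKO: all 3 EKO-labelled libraries lay above all 3 CtrV libraries and the log2 fold change was 0.31 ± 0.084 (SE) in favour of the EKO-labelled cells, with an edgeR adjusted p of 0.011, which became 0.073 without CtrV replicate 2 and 0.063 without EKO replicate 2. An edit that ends the protein need not lower the transcript, and the paper reports that the pooled clones were screened and showed little or no Siglec-E. The label was not otherwise checked by these data, which hold no protein measure, so the cells are called EKO-labelled throughout.

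Library totals lay between 29560480 and 36876844 counts in CtrV and between 31533510 and 39698572 counts in EKO-labelled cells, and 3 counts correspond to between 0.0785 and 0.0995 CPM. In a principal component analysis of the 6 libraries based on 3520 variable genes, 87.0% of the variance fell on a first component that separated the lines, with CtrV from -43.1 to -32.2 and EKO-labelled cells from 35.8 to 41.9. The second held 6.95% and set replicate 1 of both lines, at 13.4 and 15.9, apart from the other 4 libraries, at -14.3 to -1.9. Of 15 markers of conventional DCs, 14 passed the filter on low levels (9 higher and 1 lower in EKO-labelled cells), and the summed level of the list was 23900 to 25039 CPM in CtrV and 25854 to 26313 CPM in EKO-labelled cells. The 1 listed marker below the filter was Clec9a, a marker of cDC1, with at most 1 count in every library. Batf3, a factor of the same DC subset, passed the filter, so the absence of Clec9a does not stand for all cDC1 markers. Macrophage markers were also present and differed: 7 of the 9 measured were higher in EKO-labelled cells and 0 were lower, and the 10 listed summed to 2288 to 2584 CPM in CtrV and to 3412 to 3773 CPM in EKO-labelled cells. Markers of B cells, NK cells, neutrophils, mast cells and erythroid cells were all below the expression filter. Of 6 plasmacytoid DC markers only Bst2 was measured, and it was higher in EKO-labelled cells by 1.29 (list sums of 74.2 to 126 against 205 to 259 CPM). Below the filter, Siglech of that list went the other way, with 9 to 11 counts in CtrV and 0 in EKO-labelled libraries. Of 7 markers of fibroblasts and endothelium only Pecam1 and Cdh5 were measured, higher by 0.85 and 0.87 (list sums of 167 to 203 against 318 to 338 CPM). The collagen and Pdgfr genes of that list were below the filter. In bulk libraries fewer cells of a type and less RNA per cell cannot be told apart. The part of these markers in the results below was not tested.

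Of 14079 genes tested, 6619 differed between the lines at an edgeR adjusted p under 0.05, which is 47.0% of all genes, with 3531 (25.1%) higher and 3088 (21.9%) lower in EKO-labelled cells. The 3 libraries of one line did not overlap those of the other in 52.9% of genes. Since so many genes were called, a gene list was read against these shares and by its median log2 fold change relative to that of all tested genes. Genes that also belong to the interferon, tumor necrosis factor, inflammatory or cell cycle lists (632 tested) were left out of list counts and medians; among the 13447 other genes, 24.0% were higher and 21.5% lower. Over 52 lists with at least 8 measured members, the relative medians ranged from -0.28 for ER chaperones and the unfolded protein response to 0.94 for endocytic and scavenger receptors. They lay above that of all genes in 27 lists and below it in 25, and 43 lists had the same sign in all 3 replicate pairs.

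**Figure D1:**
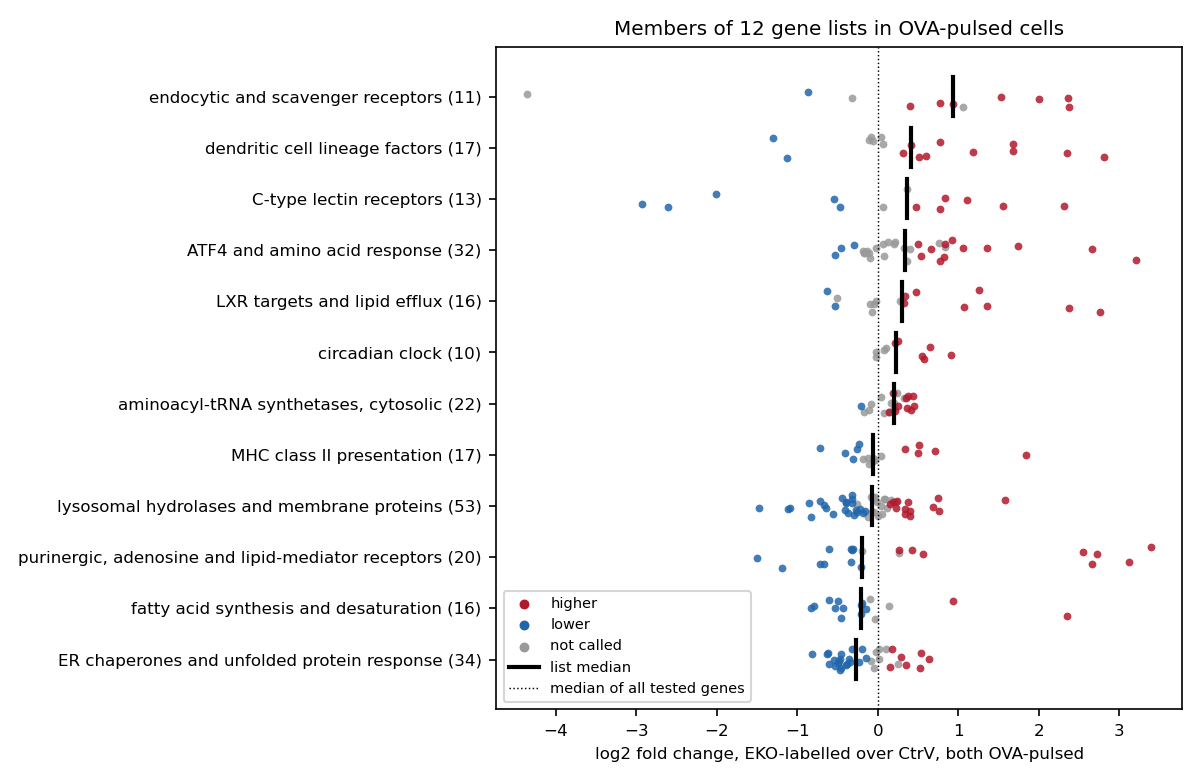
Log2 fold change (x axis) of each measured member of the 12 gene lists described at length, with the number of members in brackets. Red and blue points passed the edgeR test as higher or lower in EKO-labelled cells, grey points did not, black bars are list medians and the dotted line is the median of all tested genes. List medians run from -0.28 for ER chaperones to 0.94 for endocytic and scavenger receptors, and most lists hold members on both sides of the line.

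The largest fall was that of Sh3kbp1, among genes with a mean log2 CPM of at least 1. Sh3kbp1, the adaptor CIN85 that links receptors to endocytosis, measured 81.04, 69.5 and 60.5 CPM in CtrV and 0.157, 0.129 and 0.154 CPM in EKO-labelled cells. That is a log2 fold change of -8.87 ± 0.10 (SE; edgeR adjusted p = 4.9e-12), with only 4 to 6 reads in each EKO-labelled library. Slc8a2, a sodium-calcium exchanger, measured 114, 110.4 and 111 CPM in CtrV and 0.262, 0.354 and 0.492 CPM in EKO-labelled cells. Only the CtrV libraries among the OVA-pulsed ones carried Sh3kbp1 and Slc8a2 past the filter, so the filter partly selected for these falls. Itgae, the CD103 integrin chain that binds E-cadherin and marks a cross-presenting DC subset, measured 77.7, 84.9 and 108 CPM in CtrV and 1.46, 1.19 and 1.54 CPM in EKO-labelled cells. In each case all 3 EKO-labelled libraries lay far below all 3 CtrV libraries, and the log2 fold changes were -8.25 ± 0.12 and -5.99 ± 0.11 (SE; edgeR adjusted p = 2.4e-11 and 1.3e-10).

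The transcript of Alox15, the lipoxygenase that makes lipid mediators from arachidonic and linoleic acid, was abundant in CtrV and measured 1181, 1003 and 1046 CPM in CtrV and 18.5, 30.5 and 26.4 CPM in EKO-labelled cells. Tbx21, the transcription factor T-bet, measured 72.8, 68.3 and 53.4 CPM in CtrV and 2.51, 2.12 and 1.63 CPM in EKO-labelled cells. The lines did not overlap in either gene, with log2 fold changes of -5.44 ± 0.19 and -4.95 ± 0.068 (SE; edgeR adjusted p = 1.4e-08 and 1.3e-11). Rab37, a small GTPase of secretory vesicles, Klrb1f, a lectin-like receptor of the NKR-P1 family, Sptbn1, a spectrin of the membrane skeleton, Maged1, an adaptor of the MAGE family, and Ptpn3, a tyrosine phosphatase, made up the 10 largest falls among genes with a mean log2 CPM of at least 1 in no set-aside list, with log2 fold changes of -5.86, -5.65, -4.89, -4.51 and -4.24. In EKO-labelled cells Klrb1f, Sptbn1 and Ptpn3 averaged 0.80, 0.97 and 0.53 CPM, so the filter could have partly selected for these falls.

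Several of the largest rises began from a low level in CtrV. Among the OVA-pulsed libraries, only the EKO-labelled ones carried Arhgap10 and Ly86 past the filter, so the filter partly selected for these rises. Arhgap10, a GTPase-activating protein, measured 0.324, 0.211 and 0.199 CPM in CtrV and 16.3, 14.1 and 15.005 CPM in EKO-labelled cells. The log2 fold change of Arhgap10 was 5.92 ± 0.16 (SE; edgeR adjusted p = 4.1e-09), and the CtrV values rest on 6 to 12 reads. Ly86, which encodes MD-1, the partner of the Toll-like receptor homologue RP105, measured 0.621, 0.755 and 0.829 CPM in CtrV and 13.3, 11.2 and 12.9 CPM in EKO-labelled cells. Cd207, the lectin langerin of Langerhans cells and some conventional DCs, measured 8.67, 8.097 and 8.46 CPM in CtrV and 99.1, 107 and 80.5 CPM in EKO-labelled cells. Mmp13, a collagenase, measured 67.8, 65.4 and 69.1 CPM in CtrV and 741, 1022 and 909 CPM in EKO-labelled cells. All 3 EKO-labelled libraries were above all 3 CtrV libraries in these genes, and the log2 fold changes of Ly86, Cd207 and Mmp13 were 4.09 ± 0.17, 3.50 ± 0.12 and 3.71 ± 0.11 (SE; edgeR adjusted p = 4.5e-08, 1.7e-08 and 7.6e-09).

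Among genes that met the same conditions, the other 6 of the 10 largest rises were Rtl5 (4.72), Pla2g4f (4.00), Itga9 (3.88), Ikbke (3.51), Pygl (3.48) and Sp6 (3.41), as log2 fold changes. Pla2g4f is a cytosolic phospholipase A2, Itga9 an integrin chain, Ikbke a kinase of the IKK family and Pygl a glycogen phosphorylase. In CtrV, Rtl5, Pla2g4f, Itga9 and Pygl averaged only 0.60, 0.71, 0.63 and 0.74 CPM, below the filter's limit of log2 CPM 0. The filter could therefore have partly selected for these rises. Replicate 1 stood high within both lines for Sp6, at 3.13, 0.997 and 0.464 CPM in CtrV and 35.04, 6.37 and 9.62 CPM in EKO-labelled cells, and exons annotated to another gene cover 86.7% of its own, so that its reads cannot be assigned with certainty.

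**Figure D2:**
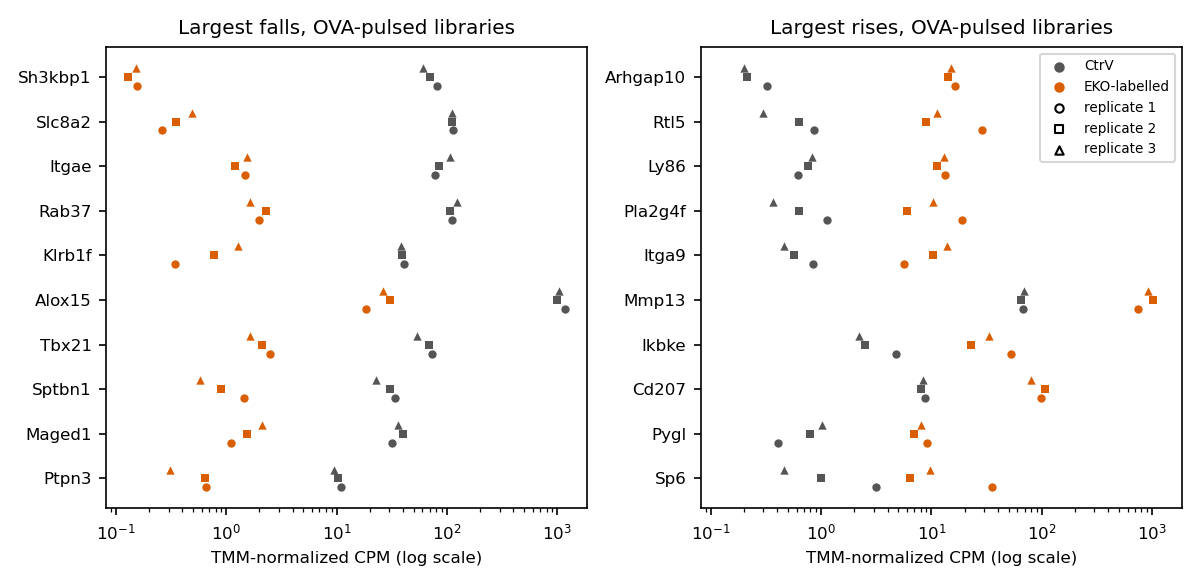
TMM-normalized CPM (x axis, log scale) of the 10 genes with the largest falls and the 10 with the largest rises among genes with a mean log2 CPM of at least 1 in no set-aside list, in each of the 6 OVA-pulsed libraries, CtrV in grey and EKO-labelled in orange, with a symbol for each replicate number. In all 20 genes the 2 colours do not overlap, from Sh3kbp1 at a log2 fold change of -8.87 to Arhgap10 at 5.92. The genes were picked from these same libraries for large changes of 1 direction, so this lack of overlap largely follows from the choice.

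Among members that passed the filter on low levels, receptors for uptake of proteins, lipoproteins and dying cells were the list with the highest median. A gene low in 1 line could pass that filter through the other line alone. Of 29 listed, 11 outside the set-aside lists were measured, of which 7 were higher and 1 lower, with a relative median of 0.94 (0.56, 0.50 and 1.03 in replicate pairs 1 to 3). The summed macrophage markers moved with this list (2288 to 2584 CPM in CtrV and 3412 to 3773 CPM in EKO-labelled cells), and their part in it was not tested. Ly75, the endocytic receptor DEC-205, measured 21.02, 9.396 and 10.2 CPM in CtrV and 127, 29.98 and 64.5 CPM in EKO-labelled cells. The lines did not overlap, though the EKO-labelled libraries spread widely, with replicate 1 the highest in both lines, and the log2 fold change was 2.36 ± 0.37 (SE; edgeR adjusted p = 0.00041). Cd209a, a DC-SIGN homologue, measured 1.43, 2.15 and 3.61 CPM in CtrV and 8.26, 10.1 and 9.56 CPM in EKO-labelled cells. Axl, a receptor for phosphatidylserine bound to Gas6, measured 309, 254 and 297 CPM in CtrV and 460.4, 599 and 604 CPM in EKO-labelled cells. Both were higher in every EKO-labelled library, by 2.00 ± 0.18 and 0.94 ± 0.15 on the log2 scale (SE; edgeR adjusted p = 9.5e-06 and 0.00059).

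Scarb1, the high-density lipoprotein receptor, was the only member called lower and measured 26.6, 27.3 and 30.6 CPM in CtrV and 13.8, 16.7 and 15.8 CPM in EKO-labelled cells. The log2 fold change was -0.87 ± 0.076 (SE; edgeR adjusted p = 6.5e-06), without overlap. The fatty acid receptor Cd36 measured 0.351, 0.332 and 0.298 CPM in CtrV and 2.41, 1.13 and 1.63 CPM in EKO-labelled cells, and rose from this low level by 2.38 ± 0.41 on the log2 scale (SE; edgeR adjusted p = 0.00078). Of the OVA-pulsed libraries, only the EKO-labelled ones carried Cd36 past the filter, so the filter partly selected for this rise. Mertk and Lrp1 did not pass the test, with log2 fold changes of -0.32 ± 0.25 and 1.06 ± 0.72 (SE), nor did Havcr1, which had at most 1 count in each EKO-labelled library and from 0 to 43 counts in CtrV. Mrc1, the mannose receptor known to take up soluble OVA, had 0 counts in all 6 libraries, which allows a level of up to 3 counts in each. The paper, in its antigen uptake experiments, observed less expression of this receptor on EKO than on control cells. Counts here are of RNA after LPS stimulation, so measure and conditions may differ from the paper's. The 0 counts therefore do not show that the receptor was absent.

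C-type lectin receptors, which bind sugars on microbes and on self glycoproteins, changed in both directions. Of 13 measured outside the set-aside lists, 6 were higher and 5 lower, and the relative median of 0.36 varied from -0.070 in pair 2 to 0.65 in pair 3, and was 0.099 without CtrV replicate 3 and 0.079 without EKO replicate 3. Clec4a2, an inhibitory receptor of DCs, measured 9.81, 10.1 and 11.2 CPM in CtrV and 50.2, 53.3 and 51.3 CPM in EKO-labelled cells, and Clec4n, which encodes Dectin-2, measured 1323, 1239.8 and 1129 CPM in CtrV and 2199.5, 2332 and 2042 CPM in EKO-labelled cells. Clec7a, which encodes the beta-glucan receptor Dectin-1, measured 287, 237 and 222 CPM in CtrV and 44.3, 73.7 and 73.1 CPM in EKO-labelled cells. None of these 3 overlapped between lines, with log2 fold changes of 2.32 ± 0.091 and 0.83 ± 0.072 against -2.01 ± 0.24 (SE; edgeR adjusted p = 3e-08, 5.9e-06 and 7.1e-05). Clec4b1 was also higher, by 1.56. Klrd1, the CD94 chain, measured 41.1, 44.5 and 47.7 CPM in CtrV and 4.603, 7.11 and 5.93 CPM in EKO-labelled cells, and was lower by the test at a log2 fold change of -2.93 ± 0.14 (SE; edgeR adjusted p = 1.2e-07).

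Fc and immunoglobulin-like receptors, the class to which Siglec-E belongs, were higher in 14 of 31 cases and lower in 5, with a relative median of 0.11. The other Siglecs measured did not move together. Siglecg, an inhibitory family member best known in B cells, measured 0.73, 1.299 and 0.962 CPM in CtrV and 5.47, 5.66 and 5.97 CPM in EKO-labelled cells, and Siglecf, known from eosinophils and alveolar macrophages, measured 6.73, 9.31 and 11.1 CPM in CtrV and 10.7, 17.9 and 17.1 CPM in EKO-labelled cells. Cd33, the mouse CD33 homologue, measured 187, 179 and 196 CPM in CtrV and 82.1, 105 and 97.9 CPM in EKO-labelled cells. Siglecg was higher without overlap and Cd33 lower without overlap, while for Siglecf replicate 1 of the EKO-labelled cells lay within the CtrV range. The log2 fold changes of Siglecg, Siglecf and Cd33 were 2.52 ± 0.19, 0.74 ± 0.12 and -0.98 ± 0.11 (SE; edgeR adjusted p = 2.1e-06, 0.00055 and 4.4e-05).

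Among the remaining immunoglobulin-like receptors, Cd300ld, an activating member of the CD300 family, measured 50.9, 50.003 and 44.8 CPM in CtrV and 285, 322 and 285 CPM in EKO-labelled cells. Fcer1g, the signalling chain shared by activating Fc receptors, measured 37.4, 30.2 and 29.6 CPM in CtrV and 116, 96.8 and 105 CPM in EKO-labelled cells. Lilrb4a, an inhibitory receptor with tyrosine-based motifs, measured 122.7, 109.6 and 133 CPM in CtrV and 265, 295 and 295 CPM in EKO-labelled cells, with 35.9% of its exons shared with another annotated gene. All 3 were higher without overlap, at 2.61 ± 0.068, 1.71 ± 0.074 and 1.23 ± 0.068 (SE; edgeR adjusted p = 3.1e-09, 5.8e-08 and 2.4e-07). Inhibitory receptors went both ways, with Pirb higher at 0.54 and Cd200r1 lower at -0.67, and the adaptor Tyrobp did not pass the test, at -0.11 ± 0.057 (SE).

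Of 17 MHC class II genes, 5 were higher and 5 lower (29.4% each), and the relative median was -0.059. These shares lie near the 24.0% higher and 21.5% lower of all genes outside the set-aside lists. The 2 chains of I-A rose together: H2-Aa measured 2576, 2624 and 2693 CPM in CtrV and 3949.8, 3644 and 3521 CPM in EKO-labelled cells, and H2-Ab1 measured 2825, 3030.4 and 3085 CPM in CtrV and 4236, 4358 and 4169 CPM in EKO-labelled cells. Their log2 fold changes were 0.49 ± 0.064 and 0.52 ± 0.053 (SE; edgeR adjusted p = 0.00011 and 2.2e-05), and every EKO-labelled library exceeded every CtrV library. H2-Eb1, which is annotated as an I-E beta chain, measured 4146, 4095 and 4154 CPM in CtrV and 3672, 3527 and 3379 CPM in EKO-labelled cells, and went the other way, at -0.23 ± 0.057 (SE; edgeR adjusted p = 0.007), again without overlap.

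The H2-DM peptide exchange genes did not move together. H2-DMb1 measured 101.4, 112 and 116 CPM in CtrV and 184, 182 and 173 CPM in EKO-labelled cells, whereas H2-DMb2 measured 322, 330.4 and 366 CPM in CtrV and 289, 234 and 244 CPM in EKO-labelled cells and H2-DMa measured 307, 345 and 369.8 CPM in CtrV and 278, 276 and 266 CPM in EKO-labelled cells. H2-DMb1 was higher by 0.71 ± 0.063 and the other 2 lower, at -0.41 ± 0.084 and -0.31 ± 0.063 (SE; edgeR adjusted p = 7.3e-06, 0.0023 and 0.0021). The 2 beta chain genes are close paralogs, so that how shared reads were assigned could affect each of them. The invariant chain Cd74, which guides class II molecules to endosomes, measured 17112, 16154 and 17219 CPM in CtrV and 15246, 15678 and 15649 CPM in EKO-labelled cells, and a log2 fold change of -0.12 ± 0.067 (SE) did not pass the test. H2-Eb2 was higher, by 1.84, from a low level. Ifi30, the thiol reductase GILT that unfolds antigens, measured 40.5, 43.4 and 44.2 CPM in CtrV and 36.8, 18.1 and 24.8 CPM in EKO-labelled cells; it was lower, at -0.72 ± 0.21 (SE; edgeR adjusted p = 0.015), replicate 1 of the EKO-labelled cells lay closest to CtrV, and the call was lost in 4 of 16 alternatives. Without CtrV replicate 2, CtrV replicate 3 or EKO replicate 3 the members called lower numbered 3.

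Among 53 lysosomal genes measured, 13 were higher (24.5%) and 23 lower (43.4%), with a relative median of -0.071. The share higher lies near the 24.0% of all genes outside the set-aside lists, of which 21.5% were lower. Without EKO replicate 2 the higher members numbered 8. Of 11 cathepsins 5 were higher and 3 lower, while of 29 glycosidases, lipases and other hydrolases 4 were higher and 14 lower. Ctsl, a lysosomal endopeptidase, measured 4.38, 3.84 and 5.84 CPM in CtrV and 15.5, 12.5 and 13.5 CPM in EKO-labelled cells. Ctss, the cathepsin that trims the invariant chain in DCs, measured 520.4, 479.5 and 482 CPM in CtrV and 678, 585 and 613 CPM in EKO-labelled cells. Neither overlapped between lines, with log2 fold changes of 1.58 ± 0.13 and 0.34 ± 0.084 (SE; edgeR adjusted p = 3.9e-06 and 0.0071). The asparagine endopeptidase Lgmn rose by 0.37 and the dipeptidyl peptidase Ctsc by 0.41, whereas the aminopeptidase Ctsh fell by 0.83 on the log2 scale.

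The lower hydrolases included several that break down sphingolipids and glycoproteins. Gm2a, the activator protein for ganglioside GM2, measured 603, 617 and 651 CPM in CtrV and 218, 236 and 219 CPM in EKO-labelled cells. Psap, the precursor of the saposins, measured 573, 626 and 650.2 CPM in CtrV and 366, 405 and 392 CPM in EKO-labelled cells. Man2b1, the lysosomal alpha-mannosidase, measured 423, 441 and 435 CPM in CtrV and 194, 218 and 198 CPM in EKO-labelled cells. All 3 were lower without overlap, with log2 fold changes of -1.47 ± 0.061, -0.67 ± 0.054 and -1.09 ± 0.07 (SE; edgeR adjusted p = 4.3e-08, 3.6e-06 and 6.9e-07). Arsb, Arsa and Hexa were called lower too, at -1.11, -0.55 and -0.32, with 39.9% of the Arsb exons shared with another annotated gene. Acid sphingomyelinase (Smpd1) did not pass the test, at -0.0032 ± 0.054 (SE).

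Subunits of the vacuolar ATPase, the proton pump of these vesicles, were mostly higher: 10 of 17 rose and 1 fell, and the relative median was 0.18. Atp6v0a1, a membrane subunit, measured 151, 131 and 142 CPM in CtrV and 217, 224 and 244 CPM in EKO-labelled cells, and its paralog Atp6v0a2 measured 76.5, 74.9 and 72.6 CPM in CtrV and 58.2, 57.9 and 58.7 CPM in EKO-labelled cells. The lines did not overlap in either, and the 2 paralogs went opposite ways, at 0.69 ± 0.085 and -0.36 ± 0.047 on the log2 scale (SE; edgeR adjusted p = 7.8e-05 and 0.00013). Of their transcriptional regulators, Tfeb was lower and Tfe3 higher, at -0.32 and 0.24.

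The palindrome CACGTG, the core of the CLEAR element that TFEB binds, was searched in RefSeq promoters of GRCm38.p6, from 250 bases before to 50 after each annotated start. It was found for 14 of 45 lysosomal genes with a promoter sequence (31.1%), 4 of 12 vacuolar ATPase genes (33.3%) and 1042 of 8898 tested genes (11.7%). A match describes the letters in this window and is not a bound site. Of the 14 lysosomal genes, 2 were called higher and 6 lower. The stretches below show genes that carry the same letters (capitals) but moved in opposite directions, Ctsl and Lgmn higher, Lamp1 and Arsa lower.
Ctsl (chr13:64370711-64370770, minus strand): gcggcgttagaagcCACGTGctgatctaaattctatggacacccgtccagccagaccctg
Lgmn (chr12:102439109-102439168, minus strand): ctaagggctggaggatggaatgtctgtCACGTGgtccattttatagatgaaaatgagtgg
Lamp1 (chr8:13159073-13159132, plus strand): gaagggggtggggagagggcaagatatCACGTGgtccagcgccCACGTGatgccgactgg
Arsa (chr15:89477425-89477484, minus strand): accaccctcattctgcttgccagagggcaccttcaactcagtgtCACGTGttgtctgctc

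**Figure D3:**
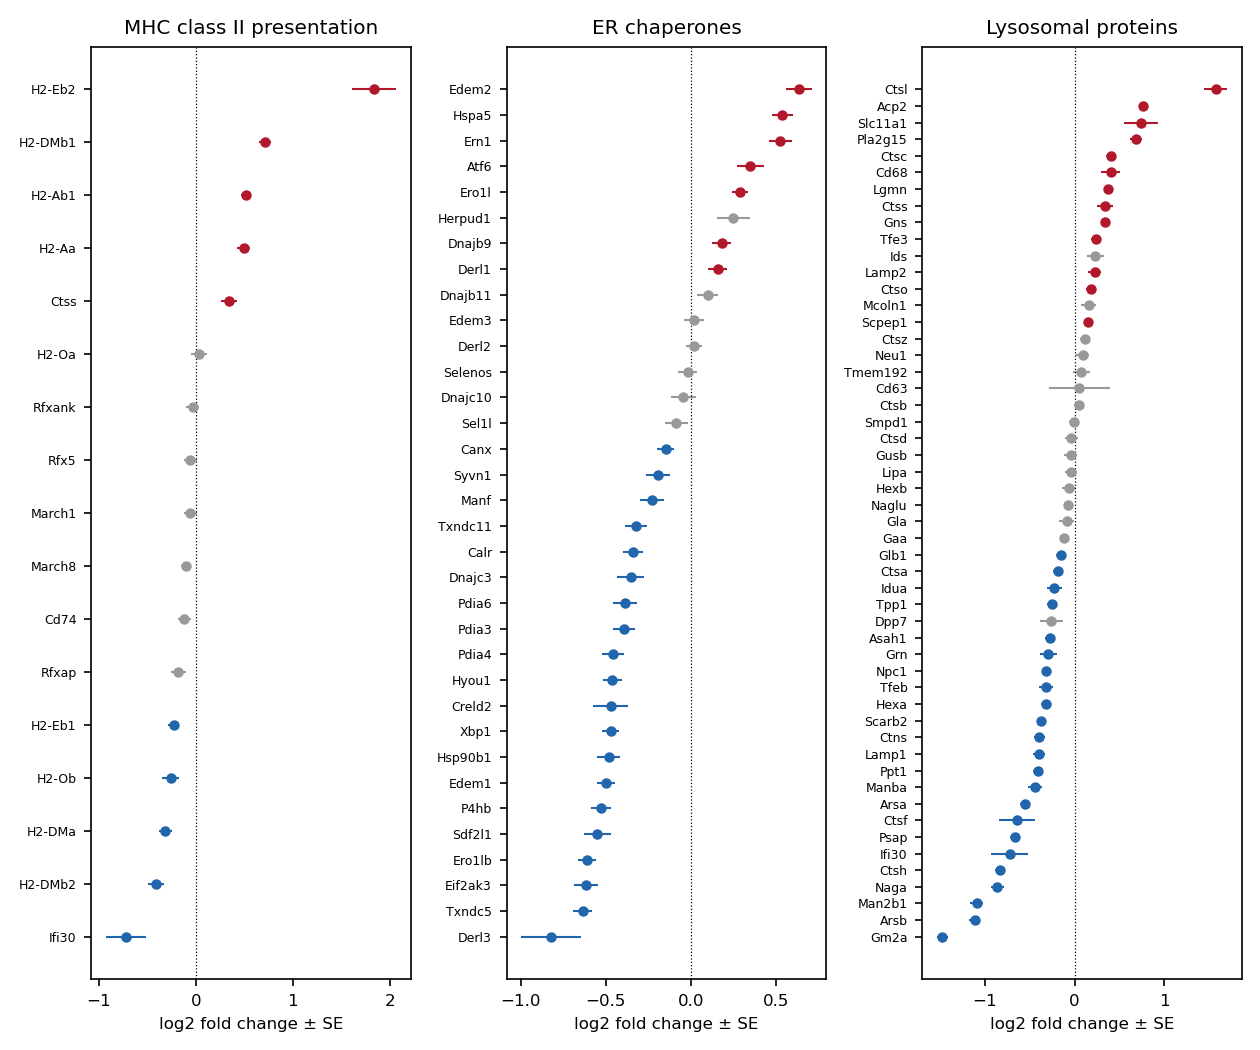
Log2 fold change with its SE (x axis) of genes for MHC class II presentation (17 genes), ER chaperones and the unfolded protein response (34 genes) and lysosomal proteins (52 of 53 genes), ordered by value. Red and blue genes passed the edgeR test as higher or lower in EKO-labelled cells. H2-Aa and H2-Ab1 lie right of 0 and H2-Eb1 left of it, Hspa5 stands apart from most other chaperones, and Ctsl and Gm2a form the 2 ends of the lysosomal list.

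ER chaperones and folding enzymes formed the list with the lowest median. Of 34 genes, 20 were lower and 7 higher (4 without the replicate block), with a relative median of -0.28 (-0.26, -0.22 and -0.39 in pairs 1 to 3). Most of the lower members were of the folding machinery, with 15 of 21 genes lower, while among 13 sensors, factors and degradation genes 5 were lower and 4 higher. Calr, the lectin chaperone calreticulin, measured 1624, 1772 and 1791 CPM in CtrV and 1311, 1476 and 1308 CPM in EKO-labelled cells. Hsp90b1, which encodes GRP94, the chaperone of Toll-like receptors and integrins, measured 1571, 1826 and 1785 CPM in CtrV and 1128, 1387 and 1197 CPM in EKO-labelled cells. P4hb, a protein disulfide isomerase, measured 1301, 1367 and 1336 CPM in CtrV and 934, 961 and 882 CPM in EKO-labelled cells. Every EKO-labelled library lay below every CtrV library in these 3 genes, with log2 fold changes of -0.34 ± 0.06, -0.48 ± 0.067 and -0.53 ± 0.058 (SE; edgeR adjusted p = 0.00089, 0.00018 and 3.3e-05).

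Hspa5, the ER chaperone BiP, did the opposite and measured 1133, 1291 and 1291 CPM in CtrV and 1673, 1972 and 1740.1 CPM in EKO-labelled cells. It was higher without overlap, at 0.54 ± 0.06 on the log2 scale (SE; edgeR adjusted p = 3.9e-05). The 3 sensors of the unfolded protein response did not move together: Ern1, which encodes IRE1, and Atf6 were higher by the test, by 0.52 with overlap between single libraries and 0.35 without, and Eif2ak3, which encodes PERK, was lower, at -0.62 ± 0.07 (SE; edgeR adjusted p = 4.5e-05). Xbp1, the factor whose mRNA IRE1 splices, was lower, at -0.47; splice forms cannot be told apart in gene counts. Derl3 and Txndc5 were the lowest members that met the naming rule, at -0.82 and -0.64, and Edem2 the highest, at 0.63.

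The ER stress response element, which reads CCAAT, then 9 bases of any kind, then CCACG on either strand, was present in the promoter window of 9 of 28 of these genes with a sequence (32.1%) and of 13 of 8898 tested genes (0.146%). Of the 9, 8 were called lower and 1, Hspa5, higher. The sequences are shown because Hspa5 carries the same element as genes that moved the other way; capitals mark the match.
Hspa5 (chr2:34772004-34772063, plus strand): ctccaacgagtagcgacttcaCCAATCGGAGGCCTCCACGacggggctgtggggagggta
Calr (chr8:84847055-84847114, minus strand): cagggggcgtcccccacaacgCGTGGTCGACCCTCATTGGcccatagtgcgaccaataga
Hsp90b1 (chr10:86705618-86705677, minus strand): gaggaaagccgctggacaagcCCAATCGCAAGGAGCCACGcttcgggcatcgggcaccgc
Pdia6 (chr12:17266470-17266529, plus strand): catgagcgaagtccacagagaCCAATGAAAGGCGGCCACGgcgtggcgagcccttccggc
Dnajc3 (chr14:118937806-118937865, plus strand): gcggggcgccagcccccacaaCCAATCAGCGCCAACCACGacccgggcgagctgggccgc

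Heat shock chaperones of the cytosol and mitochondria were called higher in 13 of 29 cases and lower in 1, with a relative median of 0.10 (8 higher without CtrV replicate 2). Hsp90aa1, the inducible cytosolic HSP90, measured 352, 385 and 360.1 CPM in CtrV and 423, 506 and 457 CPM in EKO-labelled cells, and its constitutive partner Hsp90ab1 measured 2095, 2028 and 2112 CPM in CtrV and 2291, 2409 and 2439.9 CPM in EKO-labelled cells. Both were higher without overlap, by 0.33 ± 0.052 and 0.19 ± 0.052 (SE; edgeR adjusted p = 0.00038 and 0.01). The inducible Hspa1a and Hspa1b rose by 1.09 and 0.88 from low levels; single libraries overlapped for Hspa1b, and the 2 genes are near-identical copies whose reads may be split between them. Constitutive proteasome subunits were higher in 10 of 34 cases (29.4%) and lower in 2 (5.88%). Among all genes outside the set-aside lists, 24.0% were higher and 21.5% lower. The number of subunits called higher was 4 without CtrV replicate 2, 5 without EKO replicate 2 and 6 without pair 1.

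Genes of the amino acid response, which the transcription factor ATF4 turns on when amino acids are short or eIF2 alpha is phosphorylated, were higher in 12 of 32 cases and lower in 3. The relative median was 0.34, yet it was 0.028 in replicate pair 1 against 0.66 and 0.47 in pairs 2 and 3. Phgdh, the first enzyme of serine synthesis, measured 1.73, 1.24 and 1.46 CPM in CtrV and 6.49, 10.8 and 12.1 CPM in EKO-labelled cells. Slc7a11, the cystine transporter, measured 35.6, 17.2 and 18.6 CPM in CtrV and 88.97, 72.7 and 70.6 CPM in EKO-labelled cells. Asns, asparagine synthetase, measured 118, 75.96 and 105 CPM in CtrV and 142, 196 and 202 CPM in EKO-labelled cells. The lines did not overlap, and the log2 fold changes were 2.66 ± 0.24, 1.74 ± 0.15 and 0.84 ± 0.24 (SE; edgeR adjusted p = 7.5e-06, 4.7e-06 and 0.016), with CtrV replicate 1 the highest CtrV library in each.

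Trib3, a pseudokinase that restrains ATF4, measured 14.1, 7.58 and 9.65 CPM in CtrV and 20.8, 29.3 and 32.99 CPM in EKO-labelled cells, a log2 fold change of 1.36 ± 0.32 (SE; edgeR adjusted p = 0.0055). Ppp1r15a, the phosphatase subunit GADD34 that reverses eIF2 alpha phosphorylation, measured 20.7, 13.1 and 25.3 CPM in CtrV and 45.98, 26.4 and 50.5 CPM in EKO-labelled cells, a change of 1.06 ± 0.18 (SE; edgeR adjusted p = 0.00072). Neither gene overlapped between lines. Cth, which makes cysteine, measured 0.27, 0.0906 and 0.0995 CPM in CtrV and 0.968, 1.29 and 2.46 CPM in EKO-labelled cells and was called higher (edgeR adjusted p = 0.00057), with 3 to 10 reads in each CtrV library. Of the OVA-pulsed libraries, only EKO-labelled ones carried Cth past the filter, so the filter partly selected for this rise. Atf4 itself, at 0.32 ± 0.17 (SE), did not pass the test, and neither did Psat1 and Psph, the next enzymes of serine synthesis, at -0.18 ± 0.14 and -0.10 ± 0.13. The leucine transporter Slc7a5 was called lower and measured 790.3, 561 and 715 CPM in CtrV and 423, 469.6 and 534 CPM in EKO-labelled cells, a log2 fold change of -0.54 ± 0.17 (SE; edgeR adjusted p = 0.022). The relative median was 0.20 without CtrV replicate 2, 0.23 without EKO replicate 2 and 0.61 without CtrV replicate 1 or pair 1. The number of higher members was 6 without CtrV replicate 2 and 7 without CtrV replicate 3, and upper-quartile normalization called 6 lower.

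Cytosolic aminoacyl-tRNA synthetases, which charge tRNAs for translation, were higher in 10 of 22 cases and lower in 1, with a relative median of 0.20 (0.058, 0.33 and 0.27 in pairs 1 to 3). Gars, for glycine, measured 350.5, 318 and 354 CPM in CtrV and 418, 471 and 468 CPM in EKO-labelled cells. Its groups did not overlap, with a change of 0.41 ± 0.084 (SE; edgeR adjusted p = 0.0025). Nars, Cars and Lars were at 0.45 ± 0.12, 0.43 ± 0.16 and 0.38 ± 0.10 (SE; edgeR adjusted p = 0.012, 0.046 and 0.0096), and lost the call in 3, 7 and 2 of 16 alternatives. The count of higher members was 3 without CtrV replicate 2, 4 without CtrV replicate 3, 3 without EKO replicate 2 and 6 after upper-quartile normalization.

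The CEBP-ATF response element, TGATGNAA on either strand, lay in the promoter window of 7 of 26 amino acid response genes (26.9%), of 5 of 15 synthetase genes (33.3%) and of 255 of 8898 tested genes (2.87%). Of the 7, 5 were called higher and 0 lower, and of the 5 synthetase genes 2 were higher and 0 lower. Genes of both lists that were higher and hold the element are shown, with matches in capitals; Slc7a11 has 2 matches, on opposite strands.
Asns (chr6:7693210-7693269, minus strand): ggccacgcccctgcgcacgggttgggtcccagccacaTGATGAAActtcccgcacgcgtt
Slc7a11 (chr3:50443646-50443705, minus strand): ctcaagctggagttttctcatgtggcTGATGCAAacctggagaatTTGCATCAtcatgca
Pycr1 (chr11:120643818-120643877, minus strand): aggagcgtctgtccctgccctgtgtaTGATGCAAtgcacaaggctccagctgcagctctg
Gars (chr6:55037941-55038000, plus strand): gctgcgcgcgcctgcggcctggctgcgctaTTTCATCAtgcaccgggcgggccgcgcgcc

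**Figure D4:**
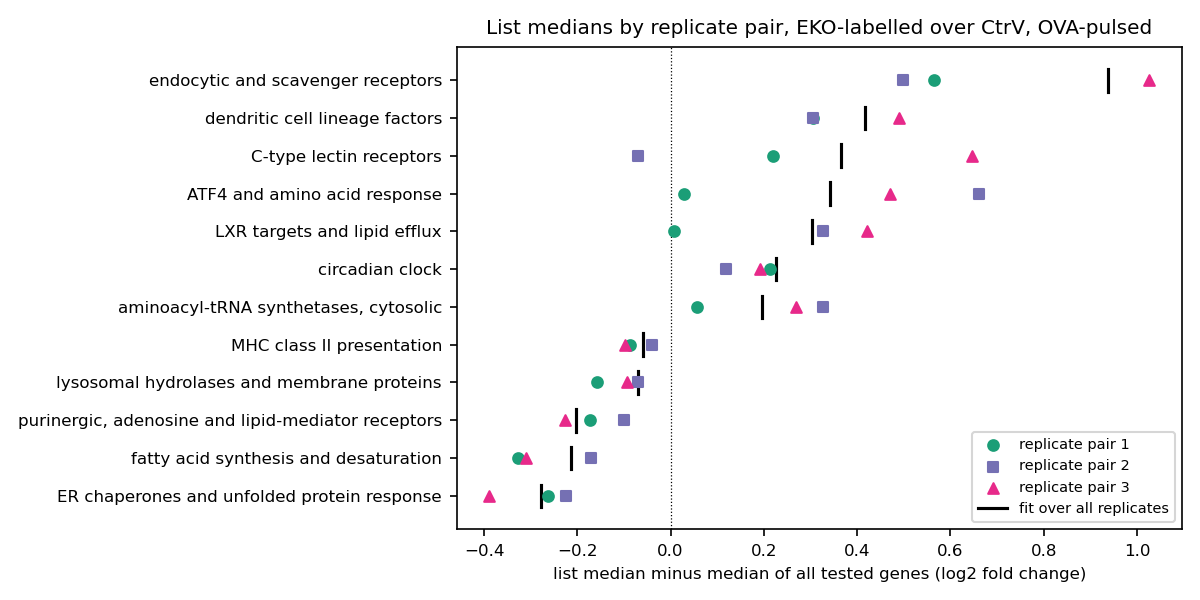
Median log2 fold change of each of the 12 lists relative to the median of all tested genes (x axis), in replicate pair 1 (circles), pair 2 (squares) and pair 3 (triangles), with the value from the fit over all replicates as a black bar. The amino acid response and LXR lists lie near 0 in pair 1 (0.028 and 0.0078) and well above it in pairs 2 and 3, while the ER chaperone list is below 0 in all 3 pairs.

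Fatty acid synthesis was lower: 11 of 16 enzymes and regulators fell and 2 rose, with a relative median of -0.21, and all 5 genes of the synthesis steps were lower. Without CtrV replicate 3 the lower members numbered 7. Fasn, fatty acid synthase, measured 805, 679.98 and 685 CPM in CtrV and 643, 434 and 446 CPM in EKO-labelled cells. Scd2, a stearoyl-CoA desaturase, measured 1102, 784 and 990.05 CPM in CtrV and 642, 480.2 and 488 CPM in EKO-labelled cells. Elovl6, the elongase of palmitate, measured 60.1, 61.9 and 76.6 CPM in CtrV and 44.2, 36.3 and 34.9 CPM in EKO-labelled cells. The lines did not overlap in these genes, and the log2 fold changes were -0.54 ± 0.10, -0.84 ± 0.086 and -0.79 ± 0.12 (SE; edgeR adjusted p = 0.0016, 2.1e-05 and 0.00027).

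The 2 exceptions that rose were Elovl7, an elongase of long saturated fatty acids, and Hacd3, a dehydratase of the elongation cycle. Elovl7 measured 1.297, 1.24 and 0.862 CPM in CtrV and 6.12, 6.95 and 4.49 CPM in EKO-labelled cells and Hacd3 measured 48.3, 46.98 and 46.5 CPM in CtrV and 109, 77.9 and 85.7 CPM in EKO-labelled cells. Both were without overlap, at 2.35 ± 0.14 and 0.93 ± 0.12 (SE; edgeR adjusted p = 4.9e-07 and 9.2e-05). The paralog Scd1 did not pass the test, at -0.10 ± 0.17 (SE). Among 27 enzymes of fatty acid oxidation, 4 were higher (14.8%) and 10 lower (37.0%), beside 24.0% and 21.5% of all genes outside the set-aside lists. The lower members numbered 5 without CtrV replicate 2 or EKO replicate 3, and 6 without CtrV replicate 3, EKO replicate 2, pair 1 or the replicate block, and the higher ones 2 with DESeq2 or without pair 1. Hadh, the mitochondrial hydroxyacyl-CoA dehydrogenase of this list, measured 9.27, 9.64 and 10.8 CPM in CtrV and 0.0785, 0.0322 and 0.0307 CPM in EKO-labelled cells, with 1 to 3 reads in each EKO-labelled library (edgeR adjusted p = 5.8e-09). Only the CtrV libraries among the OVA-pulsed ones carried Hadh past the filter, so the filter partly selected for this fall.

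Of 27 genes for cholesterol synthesis and uptake, 13 were lower and 0 higher, with a relative median of -0.16; without the replicate block 7 were lower. Srebf2, the factor that turns the pathway on, measured 704, 658 and 691 CPM in CtrV and 525, 506 and 528 CPM in EKO-labelled cells. The groups did not overlap, and the log2 fold change was -0.40 ± 0.057 (SE; edgeR adjusted p = 0.00024). The synthase Hmgcs1, at an early step, did not pass the test, at -0.021 ± 0.052 (SE). The sterol regulatory element TCACNCCAC was found in 1 of 20 promoters of the list (5.00%), that of Hmgcs1, against 1.30% of all tested genes.

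Genes of lipid efflux and storage, many of them targets of the oxysterol receptor LXR, were higher in 8 of 16 cases and lower in 2. The relative median was 0.30, but 0.18 without CtrV replicate 3 and 0.13 over genes with at least 10 counts in every library. Pltp, the phospholipid transfer protein, measured 35.7, 32.1 and 35.5 CPM in CtrV and 83.7, 78.5 and 84.3 CPM in EKO-labelled cells. Mylip, the ligase IDOL that degrades the LDL receptor, measured 5.27, 4.92 and 3.98 CPM in CtrV and 17.5, 10.9 and 8.46 CPM in EKO-labelled cells. Pparg, the fatty acid-sensing nuclear receptor, measured 11.6, 12.1 and 11.1 CPM in CtrV and 18.2, 31.3 and 25.3 CPM in EKO-labelled cells. All 3 were higher without overlap, by 1.25 ± 0.062, 1.35 ± 0.13 and 1.07 ± 0.12 (SE; edgeR adjusted p = 1.1e-07, 1.1e-05 and 3.7e-05). Plin2, a coat protein of lipid droplets, and Soat1, the enzyme that esterifies cholesterol, were lower, at -0.64 ± 0.10 and -0.53 ± 0.056 (SE; edgeR adjusted p = 0.00054 and 2.7e-05). The lipoprotein lipase Lpl measured 1476, 1202 and 1107 CPM in CtrV and 1155, 1902 and 1640.3 CPM in EKO-labelled cells; the groups overlapped and the change of 0.28 ± 0.22 (SE) did not pass the test.

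Receptors for nucleotides, adenosine and lipid mediators were divided, with 8 of 20 members higher and 10 lower outside the set-aside lists. Their relative median was -0.20, but 0.41 over 32 members once those in the inflammatory lists were included. Ffar4, the receptor for omega-3 fatty acids, measured 2.59, 2.39 and 3.35 CPM in CtrV and 27.3, 22.1 and 22.8 CPM in EKO-labelled cells. Adora2a, a receptor for adenosine that raises cyclic AMP, measured 6.94, 2.45 and 2.49 CPM in CtrV and 44.9, 11.4 and 24.04 CPM in EKO-labelled cells. Cysltr2, a leukotriene receptor, measured 1.35, 1.57 and 1.56 CPM in CtrV and 10.04, 7.37 and 8.64 CPM in EKO-labelled cells. All 3 rose without overlap, at 3.12 ± 0.17, 2.72 ± 0.37 and 2.55 ± 0.19 (SE; edgeR adjusted p = 2.2e-07, 0.00015 and 2.2e-06), and Adora2a was highest in replicate 1 of both lines.

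Ptger3, the prostaglandin E2 receptor EP3, measured 78.7, 74.2 and 78.6 CPM in CtrV and 26.05, 28.4 and 27.5 CPM in EKO-labelled cells. S1pr4, a sphingosine-1-phosphate receptor of leukocytes, measured 20.2, 20.8 and 21.6 CPM in CtrV and 11.01, 9.46 and 7.13 CPM in EKO-labelled cells. These were lower without overlap, at -1.50 ± 0.068 and -1.19 ± 0.13 (SE; edgeR adjusted p = 7.1e-08 and 3.7e-05). Within families the members went apart: S1pr3 was higher at 3.39 while S1pr4 and S1pr2 were lower, and Adora2a was higher while Adora3 was lower, at -0.72. P2ry13, P2ry6 and P2ry14, receptors for nucleotides and UDP-sugars, were lower by the test, at -0.61, -0.33 and -0.31.

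Transcription factors of DC and myeloid identity were higher in 10 of 17 cases and lower in 2, with a relative median of 0.42. Runx2 measured 4.94, 4.23 and 4.44 CPM in CtrV and 39.96, 26.6 and 29.7 CPM in EKO-labelled cells. Batf3, which is needed for cross-presenting DCs, measured 4.59, 2.69 and 2.45 CPM in CtrV and 14.8, 6.08 and 10.6 CPM in EKO-labelled cells. Zeb2, a factor of monocyte-related and plasmacytoid DCs, measured 3.54, 2.02 and 0.895 CPM in CtrV and 9.02, 6.14 and 5.32 CPM in EKO-labelled cells. They were higher without overlap, at 2.81 ± 0.14, 1.67 ± 0.29 and 1.68 ± 0.22 (SE; edgeR adjusted p = 1.1e-07, 0.00075 and 0.0001).

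Cbfa2t3, the corepressor ETO2, measured 136, 130.1 and 114 CPM in CtrV and 61.7, 43.98 and 48.8 CPM in EKO-labelled cells, and Cebpa measured 17.9, 19.1 and 15.02 CPM in CtrV and 8.71, 7.11 and 7.78 CPM in EKO-labelled cells. These 2 were the members called lower, at -1.30 ± 0.11 and -1.13 ± 0.10 (SE; edgeR adjusted p = 3.7e-06 and 8.2e-06), without overlap. The general factors Spi1, Runx1, Runx3 and Zbtb46 did not pass the test, at 0.066 ± 0.065, -0.086 ± 0.075, -0.055 ± 0.079 and -0.11 ± 0.058 (SE), so that the DC-specific Zbtb46 was called neither way.

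Clock genes were higher in 6 of 10 cases and lower in 0, with a relative median of 0.23, but only 3 were called without the replicate block, 3 after upper-quartile normalization, 2 or 3 when any single library was left out and 2 without replicate pair 1. Cry1, a repressor of the clock, measured 20.9, 18.8 and 20.1 CPM in CtrV and 28.7, 30.9 and 29.9 CPM in EKO-labelled cells. It was higher without overlap, at 0.58 ± 0.062 (SE; edgeR adjusted p = 2.9e-05), and kept its call in all 16 alternatives. Per2, Cry2 and Clock were at 0.64 ± 0.16, 0.25 ± 0.088 and 0.21 ± 0.067 (SE; edgeR adjusted p = 0.0063, 0.04 and 0.025) and lost the call in 1, 12 and 8 of 16.

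In the list of extracellular matrix genes, proteases and inhibitors were higher in 11 of 19 cases and lower in 5, and matrix proteins higher in 1 of 11 and lower in 5. Besides Mmp13, the stromelysin Mmp10 measured 6.08, 7.13 and 5.405 CPM in CtrV and 37.2, 79.7 and 70.7 CPM in EKO-labelled cells, and the elastase Mmp12 measured 2755, 2973 and 3111 CPM in CtrV and 3251, 4226 and 3743 CPM in EKO-labelled cells. Spp1, which encodes osteopontin, measured 95.2, 95.4 and 106 CPM in CtrV and 9.55, 15.4 and 12.3 CPM in EKO-labelled cells. None of the 3 overlapped between lines, with log2 fold changes of 3.27 ± 0.18, 0.34 ± 0.069 and -3.00 ± 0.14 (SE; edgeR adjusted p = 2.7e-07, 0.0021 and 6.9e-08).

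Integrin chains were higher in 7 of 17 cases and lower in 7. Itgal, the LFA-1 chain that binds ICAM-1 on T cells, measured 81.1, 58.2 and 58.7 CPM in CtrV and 460.4, 353 and 371 CPM in EKO-labelled cells, in contrast to Itgae above. It was higher in every EKO-labelled library, at 2.59 ± 0.071 (SE; edgeR adjusted p = 4.1e-09). Solute carriers, the largest family of membrane transporters, were higher in 48 of 159 cases (30.2%) and lower in 45 (28.3%), beside 24.0% and 21.5% of all genes outside the set-aside lists, and had a relative median of -0.022.

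Genes of the TGF-beta, activin and BMP pathway were higher in 11 of 24 cases and lower in 4, with a relative median of 0.19. The ligand Tgfb3 measured 166, 162 and 155 CPM in CtrV and 404, 385 and 359 CPM in EKO-labelled cells, and the repressor Skil measured 147, 119.8 and 108 CPM in CtrV and 304, 289 and 296 CPM in EKO-labelled cells. The receptor Bmpr1a measured 56.8, 57.6 and 48.7 CPM in CtrV and 28.04, 28.4 and 25.6 CPM in EKO-labelled cells. The groups did not overlap in these genes, at 1.25 ± 0.06, 1.25 ± 0.087 and -0.99 ± 0.056 (SE; edgeR adjusted p = 1.1e-07, 1.2e-06 and 2.8e-07). Of the 2 TGF-beta receptor chains, Tgfbr2 was higher and Tgfbr1 lower, at 0.55 and -0.36.

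Classes of many genes moved little. Shares are read beside those of all genes outside the set-aside lists, 24.0% higher and 21.5% lower. Cytosolic ribosomal proteins were lower in 23 of 80 cases (28.75%) and higher in 0, with a relative median of -0.12, but the number lower was 11 without the replicate block, 6 without replicate pair 1, 10 without CtrV replicate 1 or EKO replicate 3, 12 without CtrV replicate 2 or EKO replicate 1, and 35 after upper-quartile normalization. Nuclear-encoded subunits of the respiratory chain were lower in 24 of 76 cases (31.6%) and higher in 5 (6.58%), with a relative median of -0.11. Without EKO replicate 3 the lower members numbered 13, and the higher ones 2 or 3 without any 1 of the other 5 libraries. Numbered zinc finger (Zfp) genes were higher in 81 of 283 cases (28.6%) and lower in 28 (9.89%), with a relative median of 0.097, but the fit with no replicate block called 44 higher and 18 lower.

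By position, the medians of the 20 chromosomes lay between -0.043 (chromosome 15) and 0.035 (chromosome 14) relative to all genes. Within chromosomes, the highest median over 51 neighbouring genes was 0.52 on chromosome 16, from 35694062 to 38592162 (GRCm38), with 30 genes higher and 2 lower; without the set-aside genes the highest window of that chromosome had a median of 0.26. On chromosome 1, from 85027954 to 88262289, the median was 0.46 with 30 genes higher and 3 lower, and without the set-aside genes the highest window, from 84990638 to 88220002, also had 0.46. Whether genes left in that window respond to interferon was not tested. The lowest window medians were -0.24 on chromosome 15, from 83575090 to 93234700, with 2 genes higher and 24 lower, and -0.23 on chromosome 10, from 80402997 to 81566362, with 7 higher and 24 lower. By annotated type, protein-coding genes had a relative median of 0.019 and processed pseudogenes one of -0.081. Antisense transcripts had one of 0.25 over 112 genes; the libraries were prepared with a stranded kit, but the sources used here do not say whether strand was used in counting, and without it reads of a gene and of its antisense partner cannot be told apart.

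The differences in OVA-pulsed cells were set beside those in unpulsed cells of the same lines, to ask whether any depended on the antigen. In unpulsed cells 6537 genes (46.4%) differed between the lines, and 5546 genes were called in both settings, which is 83.8% of the pulsed and 84.8% of the unpulsed calls, with 0 in opposite directions. The test of the dependence itself called 0 genes with edgeR, DESeq2 and limma voom; 269 genes (1.91%) had an unadjusted p under 0.05 with edgeR, 103 with DESeq2 and 297 with voom, and the median SE of the dependence was 0.11 on the log2 scale. Adora2a had the largest gap among the named genes, with 2.72 in pulsed and 1.96 in unpulsed cells, a difference of 0.77 with an edgeR adjusted p of 1. Absence of a call does not show that pulsing had no effect on a gene, and smaller dependences than this design resolves would be missed.

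**Figure D5:**
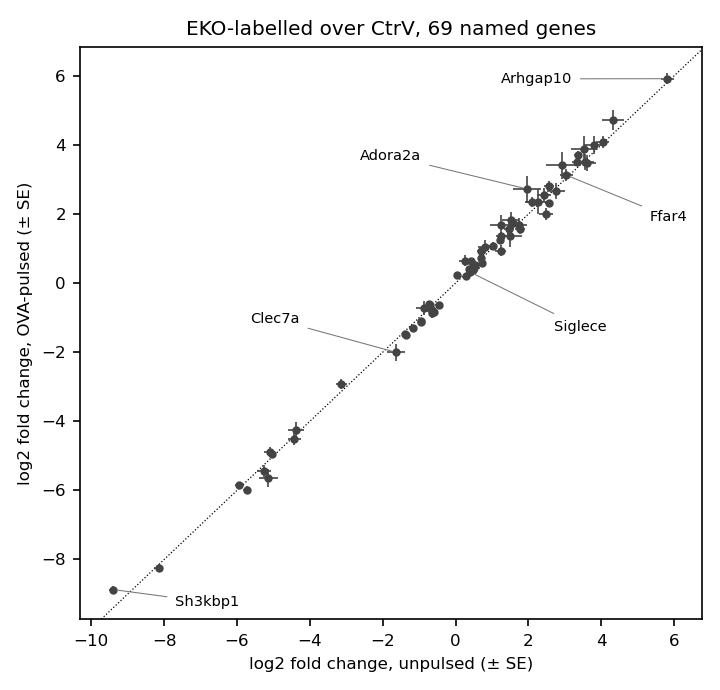
Log2 fold change of the lines for the 69 genes of the naming rule, in unpulsed (x axis) and OVA-pulsed cells (y axis), with SEs as bars and the line of equal values dotted. The genes follow the line over the whole range from Sh3kbp1 to Arhgap10, with Adora2a (1.96 against 2.72) and Clec7a (-1.63 against -2.01) among the farther ones.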

How the data were processed

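Poly(A) RNA was sequenced after a stranded mRNA library protocol. The authors aligned reads to mm10 with STAR, sorted them with SAMtools and counted read ends over exons of Ensembl genes with featureCounts; the deposited values are raw counts per gene for 12 libraries (27116201 to 39698572 in total); a count of 0 allows up to 3 counts, which covers counting error only. Whether strand was used in counting is not given in the sources used here. From these counts, genes with log2 CPM above 0 in at least 2 of the 12 libraries were kept (14079 of 55401 in the table, 28881 of which had counts). A gene low in 1 line could pass through the other line alone, so large changes of such genes are partly selected by the filter. Edited and control lines were compared with edgeR 4.0.16 in R 4.3.3, by TMM normalization and quasi-likelihood tests over all 12 libraries, with group and replicate number as terms and p-values adjusted by Benjamini-Hochberg across all of the genes kept. The dependence on pulsing was the interaction in the same model. Alternatives used limma 3.58.1 and DESeq2 1.42.0, and figures matplotlib 3.10.9. The tests were also run on simulated counts with the same spread for every gene, no replicate effect and few changed genes. That setting is unlike these data, so it does not check the error rate, the block or the normalization here.

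The study's design blocks on replicate number. Deviations from the group means of same-numbered OVA-pulsed libraries of the lines correlated at 0.45, 0.295 and 0.298, and those of unlike numbers at -0.413 to 0.221. The value of 0.221, between CtrV replicate 3 and EKO replicate 2, leaves only replicate 1 clearly set apart. Unpulsed libraries correlated at 0.066, -0.009 and 0.271 with the same number and at -0.247 to 0.186 with unlike numbers. The numbers were read as pairing the OVA-pulsed libraries, following the study's design. The same term was also fitted to the unpulsed libraries and the dependence on pulsing, where the pairing is less clear. Replicate libraries differed by more than sampling noise (chi-square per degree of freedom 7.97 to 42.2), whether technical or not, and each was counted as 1 sample.

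Symbols and positions came from GENCODE vM21 (GRCm38), matched by gene identifier, and the share of each gene's exons that overlap another gene was taken from it. Promoters came from RefSeq (GRCm38.p6), 250 bases before to 50 after a start, for 8898 tested genes, and 60 bases around the match are printed. Genes named by rule were Siglece, the 10 largest rises and falls with mean log2 CPM no lower than 1 and 1 direction in all 3 pairs, and up to 4 such genes per list at length (the 10 lists farthest from the median of all genes plus the MHC class II, lysosomal and endocytic lists, 12 in all); the values of other named genes were known when they were picked. The members and lists were chosen with earlier results of these data known. Some genes and 1 gene list are not reported here.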

Additional observations from a re-analysis of the deposited data

How the results depend on the processing

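Of the 6619 genes called, the count was 6625 with RLE and 6799 with upper-quartile normalization, 5827 with DESeq2, 6707 with limma voom, 6642 with bias-adjusted deviances, 6709 with no filter, 6326 with at least 10 counts in every library, 6758 from the 6 OVA-pulsed libraries alone, 4735 at an adjusted p under 0.01 and 5177 to 5976 when 1 library was left out. Upper-quartile normalization lowered the median of all genes to -0.036 and called 3103 genes higher and 3696 lower. Requiring an absolute log2 fold change of at least 1 left 1268 genes, with 793 higher against 475 lower. In the fit with no replicate block, 5413 genes were called (2882 higher and 2531 lower), and counts of the lists described that this moved by over 1.5 times are printed beside them; without replicate pair 1, an alternative chosen after seeing the data, 5239 were called. Without the filter on low counts, medians relative to all genes became 0.023 for mitochondrially encoded genes, 0.17 for Fc and immunoglobulin-like receptors, 0.23 for extracellular matrix and its proteases, -0.035 for nucleotide and lipid-mediator receptors, 0.0032 for ion channels and for glycosyltransferases, 0 for solute carriers, -0.016 for Notch, 0.029 for Wnt, 0.0899 for Hippo, 0.32 for clock genes, -0.027 for processed pseudogenes and 0.03 for antisense transcripts. With at least 10 counts the Notch median was -0.15 and the antisense median 0.087, and antisense transcripts stood at 0.24 with DESeq2 (0.2374) and with voom (0.2366); the cause was not tested beyond the change in genes that enter.

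When 1 library or pair 1 was left out, relative medians ranged from -0.058 to -0.033 for the lowest chromosome, from 0.0029 to 0.13 for Kruppel-like factors (0.0987 without CtrV replicate 1), from -0.11 to -0.048 for MHC class II, from -0.082 to -0.032 for NRF2 targets, from 0.17 to 0.22 for the TGF-beta pathway and from -0.098 to -0.038 for Wnt. They ranged from 0.15 to 0.26 for antisense transcripts, from 0.33 to 0.55 for dendritic cell lineage factors, from -0.054 to -0.013 for fatty acid oxidation (-0.049 without pair 1), from 0.078 to 0.14 for heat shock chaperones, from -0.19 to -0.0103 for iron handling, from -0.12 to -0.030 for lysosomal genes (-0.0527 without EKO replicate 1) and from -0.045 to 0.0068 for mitochondrial ribosomal proteins. For mitochondrially encoded genes the range was 0.059 to 0.17, for nuclear receptors -0.097 to 0.018, for ion channels 0.038 to 0.19, for the proteasome 0.059 to 0.11, for ribosome biogenesis -0.028 to 0.021 and for solute carriers -0.033 to 0.0039, so that list medians near 0 took either sign. The remaining 933 comparisons of a summary value with an alternative stayed within the spread or within 1.5 times the count. Depth limits genes near 3 counts.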

Other observations

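Genes of iron handling were lower in 7 of 15 cases (46.7%) and higher in 4 (26.7%) in OVA-pulsed EKO-labelled cells, with 1 higher without CtrV replicate 2 or EKO replicate 2. Among all genes outside the set-aside lists, 21.5% were lower and 24.0% higher. Tfrc, the transferrin receptor through which cells take up iron, measured 732, 741 and 706 CPM in CtrV and 394, 332 and 271 CPM in EKO-labelled cells. Fth1, the heavy chain of the iron store ferritin, measured 4039, 3689 and 3605 CPM in CtrV and 3444, 2774 and 2853 CPM in EKO-labelled cells. Both were lower without overlap, at -1.15 ± 0.14 and -0.32 ± 0.08 on the log2 scale (SE; edgeR adjusted p = 5.6e-05 and 0.0067). Ncoa4, which delivers ferritin to the lysosome, was higher, at 0.40 ± 0.052 (SE; edgeR adjusted p = 0.00011), and so was the iron exporter Slc40a1, at 0.93 ± 0.26 from a low level (SE; edgeR adjusted p = 0.012).

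Glycolysis genes were lower in 9 of 22 cases (40.9%) and higher in 6 (27.3%), beside 21.5% and 24.0% of all genes outside the set-aside lists. Tpi1, triose phosphate isomerase, measured 85.4, 93.8 and 101.5 CPM in CtrV and 48.8, 40.9 and 44.2 CPM in EKO-labelled cells, a log2 fold change of -1.07 ± 0.092 (SE; edgeR adjusted p = 5.8e-06). Regulators of actin and podosomes were higher in 25 of 62 cases and lower in 11, and the bundling protein Fscn1, a hallmark of mature DCs, measured 342, 120.2 and 118 CPM in CtrV and 1699, 404 and 862 CPM in EKO-labelled cells, a change of 2.33 ± 0.42 (SE; edgeR adjusted p = 0.001). The DNA demethylases Tet1 and Tet2 were at -2.79 ± 0.35 and 1.11 ± 0.17 (SE; edgeR adjusted p = 8.9e-05 and 0.00036). Metallothionein Mt2, of the NRF2 and redox list, measured 39.99, 48.2 and 38.7 CPM in CtrV and 11.7, 6.79 and 7.87 CPM in EKO-labelled cells, a change of -2.27 ± 0.21 (SE; edgeR adjusted p = 1.2e-05). That list as a whole had 7 of 30 members higher (23.3%) and 12 lower (40%), or 7 lower without CtrV replicate 3 or EKO replicate 3.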
